A study of Mus musculus with 11 samples.

Results

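Integrins and the proteins that tie them to the actin cytoskeleton were followed in hepatic sinusoidal endothelial cells (ECs) of conventionally raised (CONV-R) mice and of mice kept germ-free (GF). The set was chosen by gene name, with earlier results of these data known, and held 40 genes. They were 14 integrin alpha subunits, 8 beta subunits, 4 activators, 3 kinase and scaffold genes, 5 genes of the complex of ILK, PINCH and parvin proteins, and 6 actin linkers. The count table lists 29307 genes, and the 40 names matched 41 of its rows because *Itgam* is listed under 2 identifiers. Of these rows, 36 had enough counts to be tested. The mice were male C57BL/6J animals aged 10 to 12 weeks. GF mice were kept without microbes in isolators, and CONV-R mice carried the microbiota of specific pathogen-free housing. Both groups came from the same colonies and ate the same standard diet. Liver cells positive for CD31, CD105 and CD146 were sorted, 20 ng of total RNA per mouse was amplified, and 1 library per mouse was sequenced, for 6 CONV-R and 5 GF mice. The paper reports fewer sorted cells and a lower average RNA yield from GF than from CONV-R livers, and low viability of the sorted cells. The differences in yield go with the group and cannot be told apart from it.

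Integrins are pairs of 1 alpha and 1 beta chain that span the plasma membrane and bind matrix proteins or counter-receptors on other cells. Talins and kindlins bind the beta tail and switch the receptor to its high-affinity state. Vinculin, tensins, filamin and the ILK complex then couple it to actin, while focal adhesion kinase and its scaffolds pass on signals. Sinusoidal ECs lie on a sparse matrix without a continuous basement membrane and are exposed to shear from portal blood, and integrins are among the receptors through which ECs sense both.

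The libraries held 7242717 to 16164588 counts. Values are given as CPM, counts on a common library size after TMM scaling, and each group value is limited by its number of mice. Sinusoidal EC markers, 15 genes such as *Stab2*, *Lyve1* and *Clec4g*, summed to 42776 to 52885 CPM in CONV-R and 40672 to 59042 CPM in GF libraries. CONV-R replicate 3 stood apart from its group on the second principal component, at -48.1 against 6.01 to 17.6 in the other CONV-R libraries. The GF libraries were spread on this component from -30.2 (replicate 4) to 26.2 (replicate 2). The 10 Kupffer cell markers summed to 86.0 to 222 CPM in CONV-R and to 197 to 931 CPM in GF libraries, with the highest sum in GF replicate 6 and 357 CPM in the next. The called members and the leukocyte chains are also given without these 2 libraries. In these bulk samples, fewer cells of a type and less RNA per cell cannot be told apart.

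Among the 36 tested rows, 8 had a higher level in GF ECs and 0 a lower one (edgeR's quasi-likelihood test, adjusted p under 0.05 over 12905 genes). For comparison, 4.80% of all tested genes were higher and 2.67% were lower. The 8 genes were *Itga1*, *Itga3*, *Itgb3* and *Itgb5* among the integrin chains, *Lims2* of the ILK complex, and the actin linkers *Vcl*, *Tns1* and *Flna*. The log2 fold change was above 0 in 29 of the 36 rows and below 0 in 7, with a median of 0.43 and quartiles of 0.12 and 0.78. All tested genes had a median of -0.01 and quartiles of -0.25 and 0.22, and 49.1% of them lay above 0. The 15 sinusoidal EC markers had a median of 0.33, with 11 above 0, 4 below and 0 called. The 7 large vessel and capillary EC markers had a median of 0.76, with 5 above 0 and 2 below. The number of members called higher depended on the libraries: it lay between 3 and 11 when 1 library was left out, with 3.15% to 5.95% of all genes called higher in those fits. It was 3 without CONV-R replicate 4 or GF replicate 2, 4 without GF replicate 1 or 6, and 5 without CONV-R replicate 2, 5 or 6. Without both CONV-R replicate 3 and GF replicate 6 it was 5, with 3.38% of all genes called higher, and it was 2, with 3.70% of all genes, when the authors' normalized log2 values were tested with limma. No tested member was lower in any of these fits.

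**Figure D1:**
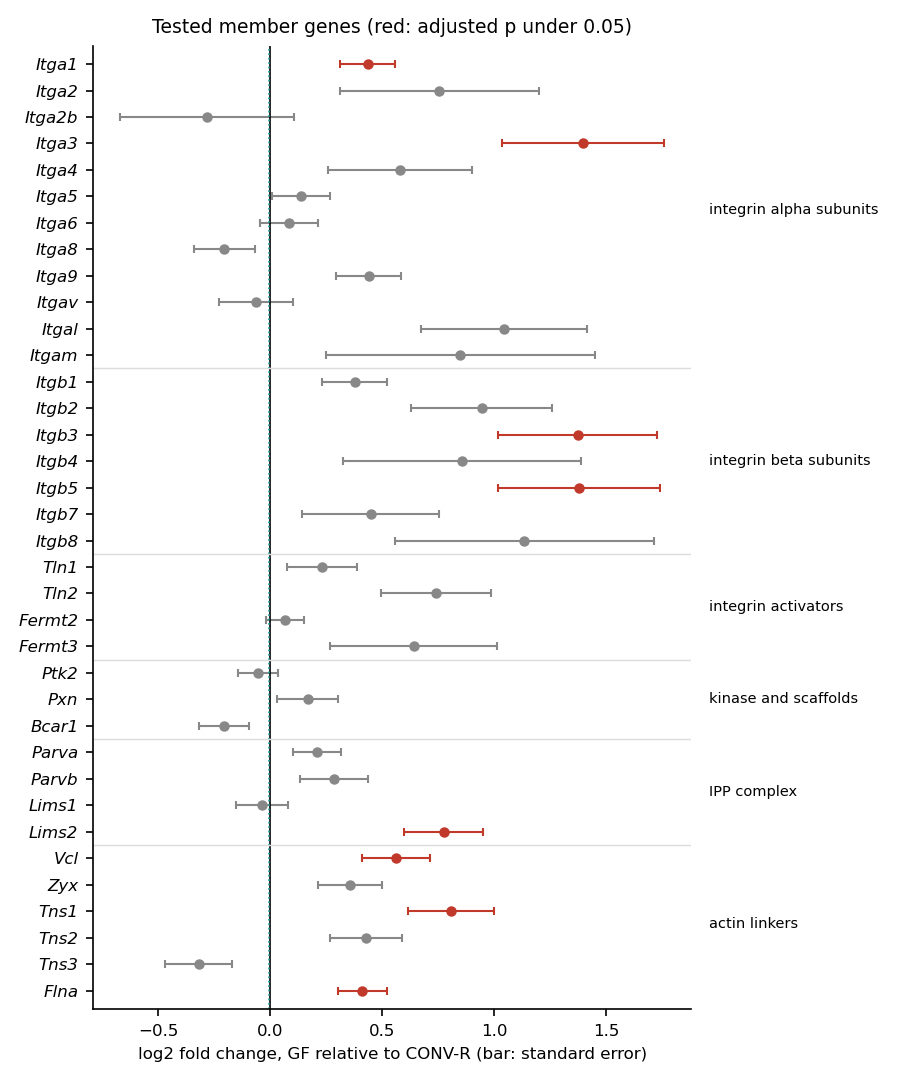
Log2 fold change of the 36 tested rows, GF relative to CONV-R, on the x axis, grouped by role. Points are estimates and bars standard errors from edgeR, red points have an adjusted p under 0.05, and the dotted line at -0.01 marks the median of all tested genes. All 8 red points lie to the right of 0, and 29 of the 36 points do.

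The promoter windows of the set were searched for the CArG box, the element bound by serum response factor, which controls many cytoskeletal genes. RefSeq windows of 250 bases before to 50 after the start site were found for 29 of the 40 genes. The box, searched on both strands, stood in 3 of their 35 windows (8.57%), against 1.63% of 32851 windows of all genes. The 3 stretches with the box in capitals are shown because they place it beside 1 member that was higher in GF ECs (*Vcl*), 1 that was tested and not called (*Fermt2*) and 1 too weak to test (*Itgb6*). Coordinates refer to GRCm38.p6 and each line reads 5′ to 3′ on the gene's strand.
*Vcl*, chr14:20929148-20929215, plus strand: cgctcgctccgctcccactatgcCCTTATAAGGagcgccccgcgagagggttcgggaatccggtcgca
*Fermt2*, chr14:45530225-45530304, minus strand: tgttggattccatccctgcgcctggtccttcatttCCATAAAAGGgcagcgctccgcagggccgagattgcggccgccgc
*Itgb6*, chr2:60673699-60673778, minus strand: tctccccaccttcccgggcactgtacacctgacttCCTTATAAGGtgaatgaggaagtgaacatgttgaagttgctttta
The first base of the box lay 227 bases before the start site in *Vcl*, 204 in *Fermt2* and 50 in *Itgb6*. The *Itgb6* window belongs to a RefSeq start site inside the gene, which runs from 60598292 to 60722643. The letters GGAATG, the core of sites bound by TEAD factors, stood on either strand in 3 of the 35 member windows (8.57%; *Vcl*, *Flna* and *Itgb1*) and in 14.7% of all windows. A match is a string of letters, and binding was not measured.

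The integrin repertoire of these ECs was led by a few chains. Levels of different genes are compared as CPM per kilobase of exon. *Itgb1*, the beta chain shared by most matrix-binding integrins, was the most abundant of the set, at 163 ± 30.9 CPM per kb in CONV-R (SD, n = 6) and 212 ± 35.04 in GF ECs (SD, n = 5). Its alpha partners followed in the order *Itga9* (102 ± 17.3 CPM per kb in CONV-R ECs), *Itga8* (49.0 ± 6.62), *Itga1* (46.3 ± 6.83), *Itga5* (27.1 ± 4.33) and *Itga6* (18.1 ± 2.63). The levels of *Itga8* and *Itga1* differed by less than their SD. *Itga9*, known from lymphatic ECs, binds tenascin and VCAM-1, *Itga5* is the fibronectin receptor chain and *Itga6* a laminin receptor chain. *Itgb3* (8.03 ± 2.42) and its partner *Itgav* (7.70 ± 1.41), the chains of the vitronectin receptor, came next at a like level in CONV-R ECs. In GF ECs *Itgb3* had 20.8 ± 15.5 CPM per kb and *Itgav* 7.38 ± 1.74. The remaining 11 tested integrin rows had at most 2.11 CPM per kb in CONV-R ECs, and *Itgb8* was the lowest at 0.0756.

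**Figure D2:**
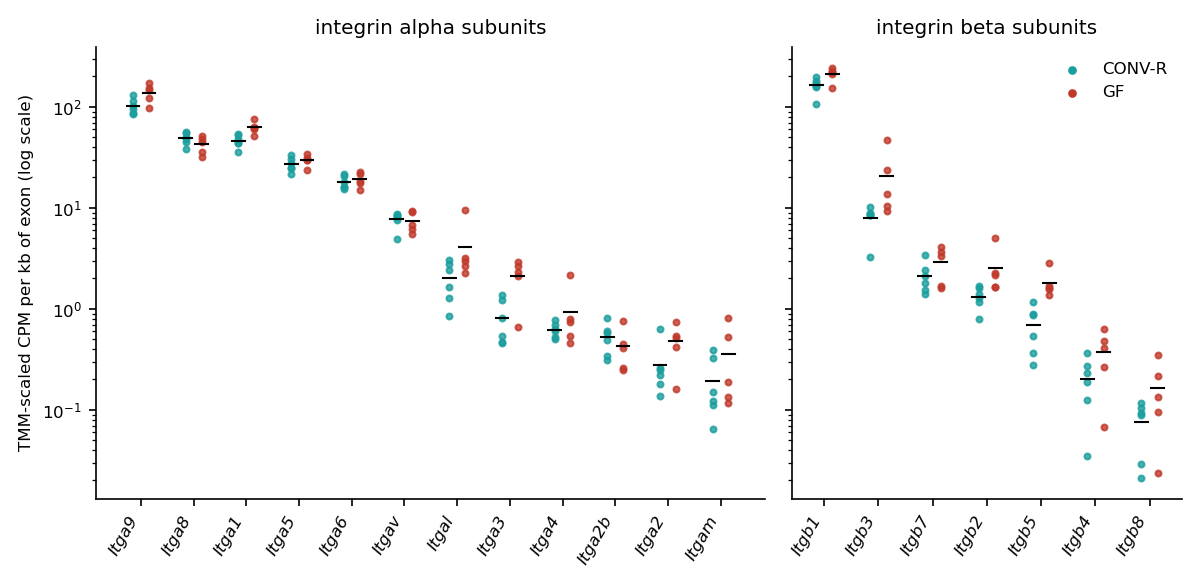
Level of each tested integrin chain in each library, as TMM-scaled CPM per kb of exon on a log scale, with CONV-R libraries in turquoise and GF libraries in red. Short lines mark group means; *Itgb1* and *Itga9* are the highest beta and alpha chains in both groups.

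Of the 12 tested alpha rows, 2 were called higher and 0 lower in GF ECs, and the median log2 fold change was 0.44. *Itga1*, on chromosome 13 of GRCm38 from 114953096 to 115101964, encodes the alpha chain of a collagen receptor that also binds laminin. CONV-R libraries ran from 667 to 1005 CPM with a median of 849, and GF replicates 1, 2, 4, 5 and 6 had 1159, 1412, 1165, 969 and 1115 CPM. All GF libraries except replicate 5 lay above the CONV-R range. The log2 fold change was 0.43 (SE 0.12, adjusted p = 0.0369 from edgeR). Its call was lost without CONV-R replicate 1, 3, 5 or 6 or GF replicate 1, 2, 4 or 6 (adjusted p 0.0510 to 0.0991), and was 0.0747 with both CONV-R replicate 3 and GF replicate 6 left out.

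*Itga3*, on chromosome 11 from 95044474 to 95076801, encodes a laminin receptor chain best known from epithelia. It had 2.65 to 7.76 CPM in CONV-R libraries, with a median of 3.87, and 13.4, 15.2, 3.81, 16.5 and 12.2 CPM in the GF libraries in the order above. GF replicate 4 lay inside the CONV-R range and the other 4 GF libraries above it, with a log2 fold change of 1.40 (SE 0.36, adjusted p = 0.0261 from edgeR). The adjusted p was 0.0539 to 0.0655 without CONV-R replicate 2 or 4 or GF replicate 1, 2 or 6, and 0.0656 with both CONV-R replicate 3 and GF replicate 6 left out. Cholangiocyte markers, 6 epithelial genes such as *Krt19* and *Epcam*, summed to 0.737 to 2.91 CPM in CONV-R libraries and to 15.4, 6.76, 0.381, 1.06 and 23.3 CPM in GF libraries. GF replicate 4 had the lowest sum and an *Itga3* level inside the CONV-R range, while GF replicate 5 had a sum inside the CONV-R range and the highest *Itga3* level. The part of these markers in the *Itga3* values was not tested.

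The other alpha chains did not pass the test. *Itga9* had 654 to 1001 CPM in CONV-R libraries (median 755) and 1335, 942, 1192, 743 and 1119.8 CPM in GF libraries, with overlapping groups and a log2 fold change of 0.44 (SE 0.15, adjusted p = 0.0780 from edgeR). It passed without CONV-R replicate 1 (0.0389) or GF replicate 5 (0.0172). *Itga8*, whose integrin binds nephronectin, *Itga5*, *Itga6* and *Itgav* had log2 fold changes of -0.21, 0.14, 0.08 and -0.06 with adjusted p of 0.390, 0.565, 0.757 and 0.866. Standard errors of these 4 lay between 0.13 and 0.17. *Itga2*, a further collagen receptor chain, had 0.75 (SE 0.44, adjusted p = 0.326), and *Itga2b*, the platelet fibrinogen receptor chain, had -0.28 (SE 0.39, adjusted p = 0.718), both from fewer than 6 CPM in every library. The 8 platelet markers summed to 17.9 to 26.5 CPM in CONV-R and 15.4 to 21.02 CPM in GF libraries.

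Of the 7 tested beta chains, 2 were called higher and 0 lower in GF ECs, and all 7 had a log2 fold change above 0, with a median of 0.94. *Itgb3*, on chromosome 11 from 104608000 to 104670476, had 19.3 to 60.4 CPM in CONV-R libraries (median 50.9) and 275, 139.8, 61.2, 55.1 and 81.7 CPM in GF libraries. CONV-R replicate 3 was the lowest library and GF replicate 1 the highest, and only GF replicate 5 fell inside the CONV-R range. Over all libraries the log2 fold change was 1.37 (SE 0.35, adjusted p = 0.0252 from edgeR). Without GF replicate 1 it was 0.83 (adjusted p = 0.0895), and the adjusted p was 0.0505 without CONV-R replicate 4 and 0.0527 without GF replicate 2. With limma's voom in place of edgeR, *Itgb3* had 1.19 (adjusted p = 0.0521). With both CONV-R replicate 3 and GF replicate 6 left out it was 1.33 (adjusted p = 0.0380).

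*Itgb5*, which pairs with the alpha v chain as a vitronectin receptor, lies on chromosome 16 from 33829665 to 33949338. It had 0.982 to 4.19 CPM in CONV-R libraries (median 2.52) and 5.98, 5.60, 4.86, 5.68 and 10.04 CPM in GF libraries. The groups did not overlap, which held for 3.22% of all tested genes in this direction. Its log2 fold change was 1.38 (SE 0.36, adjusted p = 0.0269 from edgeR) from 184 counts in all CONV-R and 318 in all GF libraries. It was 1.17 (adjusted p = 0.0841) without GF replicate 6, and the adjusted p was 0.0606 and 0.0665 without CONV-R replicate 2 or 4. With both CONV-R replicate 3 and GF replicate 6 left out, the adjusted p was 0.0944. GF replicate 6, the highest library for *Itgb5*, also had the highest Kupffer cell marker sum (931 CPM). CONV-R replicates 2, 3 and 4, the lowest for *Itgb5*, had the lowest sums (86.7, 87.5 and 86.0 CPM). GF replicates 4 and 5 had lower sums than CONV-R replicate 1 (197 and 212 against 222 CPM) but more *Itgb5* (4.86 and 5.68 against 3.10 CPM). The part of these markers in the *Itgb5* values was not tested. The alpha v chain itself did not pass the test.

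*Itgb1* had 438 to 806 CPM in CONV-R libraries (median 679) and 864, 1001, 919, 624 and 914 CPM in GF libraries. Every GF library except replicate 5 lay above the CONV-R range, and the log2 fold change was 0.38 (SE 0.15, adjusted p = 0.129 from edgeR). Without GF replicate 5 it was 0.47 (adjusted p = 0.0383). *Itgb4*, the beta chain of hemidesmosomes, and *Itgb8*, a chain that activates latent TGF-beta, had fewer than 5 CPM in each library and log2 fold changes of 0.86 (SE 0.53, adjusted p = 0.356) and 1.13 (SE 0.58, adjusted p = 0.252).

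**Figure D3:**
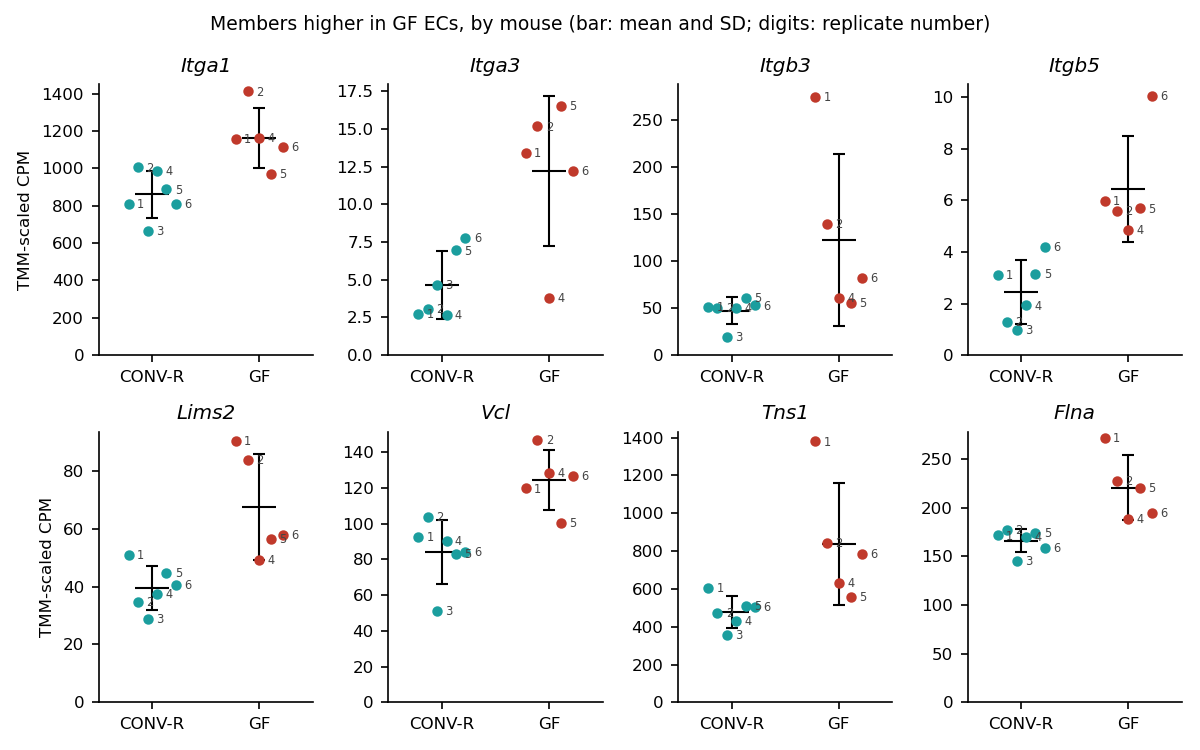
TMM-scaled CPM of the 8 members higher in GF ECs, 1 point per mouse, with digits giving the replicate number and bars the mean and SD of 6 CONV-R and 5 GF mice. Each y axis starts at 0; the groups do not overlap for *Itgb5* and *Flna*, and overlap in at least 1 library for the other 6.

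The leukocyte integrins had low levels, and *Itgal*, *Itgb2*, *Itga4* and *Itgam* were highest in the library with the most Kupffer cell markers. *Itgal*, the alpha chain of LFA-1, had 5.62 to 20.01 CPM in CONV-R libraries (median 13.4) and 19.7, 20.96, 17.6, 14.8 and 62.8 CPM in GF libraries. *Itgb2*, its beta partner, had 2.41 to 5.16 CPM in CONV-R libraries (median 4.08) and 6.95, 6.66, 5.05, 5.02 and 15.2 CPM in GF libraries. *Itga4*, a VCAM-1 receptor chain, had 7.07 to 10.9 CPM in CONV-R libraries (median 8.68) and 10.5, 11.01, 7.52, 6.48 and 30.1 CPM in GF libraries. All 3 were highest in GF replicate 6, whose Kupffer cell marker sum was 931 CPM. Their log2 fold changes were 1.04 (SE 0.37), 0.94 (SE 0.31) and 0.58 (SE 0.32) with adjusted p of 0.0973, 0.0778 and 0.300. With CONV-R replicate 3 and GF replicate 6 left out, *Itgal* had 0.54 (adjusted p = 0.329), *Itgb2* 0.64 (adjusted p = 0.196) and *Itga4* 0.06 (adjusted p = 0.910). Without GF replicate 6 alone the values were 0.48, 0.56 and 0.03. *Itgb2* passed with DESeq2 (0.0364) and without GF replicate 5 (0.0487), and *Itgal* passed without a filter on low counts (0.0124). Over all GF libraries 7 of the 10 Kupffer cell markers were higher, led in level by *Clec4f*, and their part in these values was not tested. The 12 lymphocyte and natural killer cell markers had overlapping summed levels of 6.59 to 14.0 CPM in CONV-R and 3.96 to 7.90 CPM in GF libraries. Only 4 of them had counts in every library, and 0 of the 3 with enough counts to test were called. Two-sided exact permutation tests on the summed levels gave p = 0.00866 for Kupffer cell and p = 0.0238 for lymphocyte markers (0.0952 and 0.107 after Benjamini-Hochberg adjustment over 11 marker lists).

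*Itgb7*, which pairs with the alpha 4 chain as a gut-homing receptor, had 3.86 to 9.45 CPM in CONV-R libraries and 9.36, 11.4, 4.48, 4.63 and 10.04 CPM in GF libraries, with a log2 fold change of 0.45 (SE 0.30, adjusted p = 0.409). *Itgam*, the alpha chain of complement receptor Mac-1, had at most 4.07 CPM and a log2 fold change of 0.85 (SE 0.60, adjusted p = 0.428). That maximum was in GF replicate 6, without which the log2 fold change was 0.29 (adjusted p = 0.840), and the row fell below the low-count filter without CONV-R replicate 3 or 6. Its main row shares 68.7% of its exon bases with the second row, so that reads could be split or lost between the rows. *Fermt3*, the kindlin of blood cells, had 1.98 to 4.66 CPM in CONV-R libraries and 4.35, 5.51, 3.71, 1.72 and 9.49 CPM in GF libraries, again with the highest value in GF replicate 6 (log2 fold change 0.64, SE 0.37, adjusted p = 0.319). It was 0.28 without that library (adjusted p = 0.707) and 0.26 with CONV-R replicate 3 left out as well (adjusted p = 0.742). *Itgb7* had 0.32 (adjusted p = 0.636) without both libraries.

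**Figure D4:**
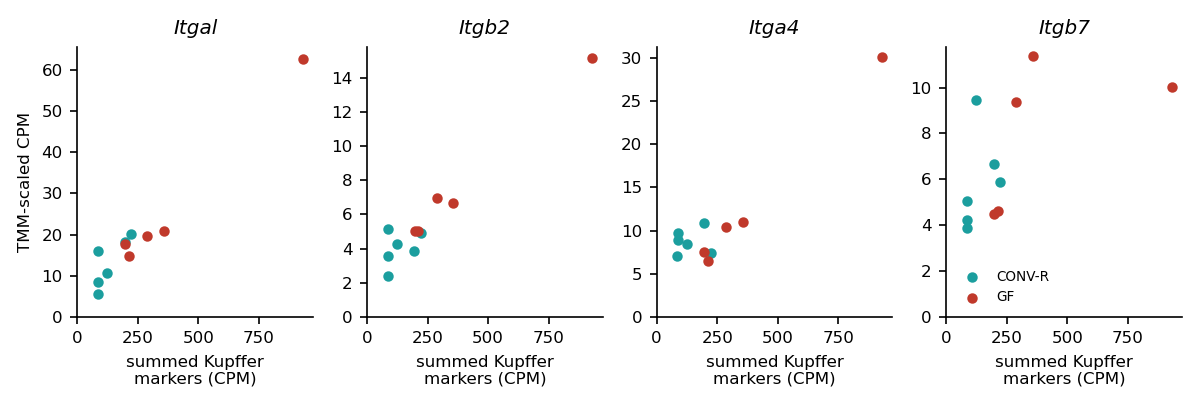
TMM-scaled CPM of 4 leukocyte integrin chains on the y axes against the summed CPM of the 10 Kupffer cell markers on the x axes, 1 point per library, CONV-R in turquoise and GF in red. GF replicate 6 is the point at 931 CPM and is the highest library for *Itgal*, *Itgb2* and *Itga4* but not for *Itgb7*.

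None of the 4 integrin activators passed the test. *Tln1*, the main talin of non-muscle cells, had 391 to 703 CPM in CONV-R libraries (median 568.1) and 844, 681, 598, 460.1 and 713 CPM in GF libraries, with a log2 fold change of 0.23 (SE 0.16, adjusted p = 0.403 from edgeR). *Tln2*, its weaker paralogue, had 10.2 to 21.2 CPM in CONV-R libraries (median 15.995) and 41.3, 31.6, 18.5, 19.4 and 21.02 CPM in GF libraries. Its log2 fold change was 0.74 (SE 0.24, adjusted p = 0.0765), and it passed with DESeq2 (0.0404) and without a filter on low counts (0.0344). *Fermt2*, the kindlin of adherent cells whose promoter is printed above, was among the steadiest members, at 494 to 573 CPM in CONV-R and 525.5 to 584 CPM in GF libraries (log2 fold change 0.07, SE 0.09, adjusted p = 0.701).

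The signalling core gave no call. *Ptk2*, which encodes focal adhesion kinase, had 268 to 287 CPM in CONV-R libraries (median 275) and 236, 299.7, 268, 267 and 258 CPM in GF libraries, with a log2 fold change of -0.05 (SE 0.09, adjusted p = 0.774). *Pxn* (paxillin) had 0.17 (SE 0.14, adjusted p = 0.508). *Bcar1*, the scaffold p130Cas, had 134 to 185 CPM in CONV-R libraries and 146, 125, 141, 109.7 and 139 CPM in GF libraries, a log2 fold change of -0.21 (SE 0.11, adjusted p = 0.284).

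In the ILK complex, *Lims2*, which encodes PINCH-2, was the only called gene among 4 tested. It lies on chromosome 18 from 31922290 to 31958619 and had 28.9 to 50.9 CPM in CONV-R libraries (median 39.0) and 90.4, 83.8, 49.1, 56.6 and 57.8 CPM in GF libraries. Only GF replicate 4 lay inside the CONV-R range. *Lims2* had a log2 fold change of 0.77 (SE 0.18, adjusted p = 0.0122 from edgeR), and the gene stayed called in all 11 fits with 1 library left out and with both CONV-R replicate 3 and GF replicate 6 left out (0.0231). Its paralogue *Lims1* (PINCH-1) had 226 to 269.9 CPM in CONV-R libraries and 237, 186, 304, 224 and 262 CPM in GF libraries, a log2 fold change of -0.04 (SE 0.12, adjusted p = 0.895). The parvins, which bind actin, had 0.21 (*Parva*, SE 0.11, adjusted p = 0.258) and 0.28 (*Parvb*, SE 0.15, adjusted p = 0.271). *Ilk*, the pseudokinase at the centre of the complex, had 3 counts in all CONV-R libraries together and 0 in the GF libraries. On GRCm38, 89.7% of its exon bases overlap exons of the opposite strand, mostly of *Taf10*, which had 116 to 259 counts per library. The strand setting of the counting is not given in the sources used here, so the *Ilk* row is not a measure of its level.

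All 6 actin linkers were tested, with at least 51.2 CPM in every library, and 3 were higher in GF ECs. *Tns1*, a tensin that binds integrin tails and actin in long-lived fibrillar adhesions, lies on chromosome 1 from 73910231 to 74124449. It had 357 to 607 CPM in CONV-R libraries (median 489.5) and 1380, 844, 633, 559.6 and 784 CPM in GF libraries. GF replicate 1 was the highest, and GF replicate 5 was the only GF library inside the CONV-R range. The log2 fold change was 0.81 (SE 0.19, adjusted p = 0.0157 from edgeR), and the call was kept in all 11 fits with 1 library left out, with log2 fold changes of 0.55 to 0.92. It was also kept with both CONV-R replicate 3 and GF replicate 6 left out (0.0465). The call was lost when the authors' normalized log2 values were tested with limma (0.65, adjusted p = 0.0625).

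*Vcl*, the gene of vinculin, which reinforces the bond of talin to actin under force, lies on chromosome 14 from 20929398 to 21033676, downstream of the box printed above. It had 51.2 to 104 CPM in CONV-R libraries (median 87.3) and 119.7, 147, 129, 101 and 127 CPM in GF libraries. CONV-R replicate 3 was far the lowest, and GF replicate 5 was the only GF library inside the CONV-R range. For *Vcl* the log2 fold change was 0.56 (SE 0.15, adjusted p = 0.0314 from edgeR). The adjusted p was 0.0534 to 0.0795 without CONV-R replicate 4, 5 or 6 or GF replicate 2, 4 or 6, and the log2 fold change was 0.45 (adjusted p = 0.0445) with both CONV-R replicate 3 and GF replicate 6 left out. Opposite-strand exons of *Ap3m1* cover 25.5% of the *Vcl* exon bases, and *Ap3m1* itself had a log2 fold change of -0.02 (adjusted p = 0.959).

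*Flna*, on chromosome X from 74223461 to 74249820, encodes filamin A, which crosslinks actin and competes with talin for beta tails. It had 145 to 177 CPM in CONV-R libraries (median 171) and 272, 228, 189, 221 and 195 CPM in GF libraries. Every GF library lay above every CONV-R library, and the log2 fold change was 0.41 (SE 0.11, adjusted p = 0.0297 from edgeR). The adjusted p was 0.0505 to 0.0847 without CONV-R replicate 2, 4, 5 or 6 or GF replicate 1 or 2, and 0.0675 without a filter on low counts. With both CONV-R replicate 3 and GF replicate 6 left out it was 0.0390. *Itgb5* and *Flna* were the only 2 of the 36 tested rows whose groups did not overlap in the higher direction, against 3.22% of all tested genes, and 0 rows were separated in the lower direction, against 2.37%.

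The other 3 linkers did not pass. *Zyx*, the gene of zyxin, which is recruited to strained actin bundles, had 73.5 to 112 CPM in CONV-R libraries and 155, 115, 99.1, 117 and 92.2 CPM in GF libraries (log2 fold change 0.36, SE 0.14, adjusted p = 0.141). *Tns2* had 268 to 512 CPM in CONV-R libraries and 677, 454, 462, 433 and 391.7 CPM in GF libraries (log2 fold change 0.43, SE 0.16, adjusted p = 0.120), and passed without CONV-R replicate 1 (0.0293). *Tns3* had 353 to 606 CPM in CONV-R libraries, the highest in replicate 3, and 357, 261, 405, 316 and 366 CPM in GF libraries (log2 fold change -0.32, SE 0.15, adjusted p = 0.213). Without CONV-R replicate 3 the *Tns3* value was -0.19 (adjusted p = 0.361).

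The count ratio of 2 paralogues within a library does not depend on library scaling. The 7 pairs inside the talin, kindlin, parvin, PINCH and tensin families were compared on the log2 ratio with exact permutation tests, two-sided and over the 462 possible splits, a comparison added after the single genes were seen. The ratio of *Tns1* to *Tns3* counts was 0.589 to 1.42 in CONV-R libraries and 3.86, 3.23, 1.56, 1.77 and 2.14 in GF libraries. The groups did not overlap, the log2 ratio differed by 1.06, and the exact p was 0.00216, the smallest these mice allow (0.0152 after adjustment over 7 pairs). For *Lims2* to *Lims1* the ratio was 0.113 to 0.194 in CONV-R libraries and 0.382, 0.451, 0.162, 0.253 and 0.220 in GF libraries, a log2 difference of 0.81 (exact p = 0.0173, adjusted 0.0404). For *Tns2* to *Tns3* the log2 difference was 0.73 (exact p = 0.0130, adjusted 0.0404). The other 4 pairs missed 0.05 in the exact test, with log2 differences of 0.32 (*Tns1* to *Tns2*, p = 0.0628), 0.49 (*Tln2* to *Tln1*, p = 0.0909), 0.43 (*Fermt3* to *Fermt2*, p = 0.329) and 0.08 (*Parvb* to *Parva*, p = 0.561).

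**Figure D5:**
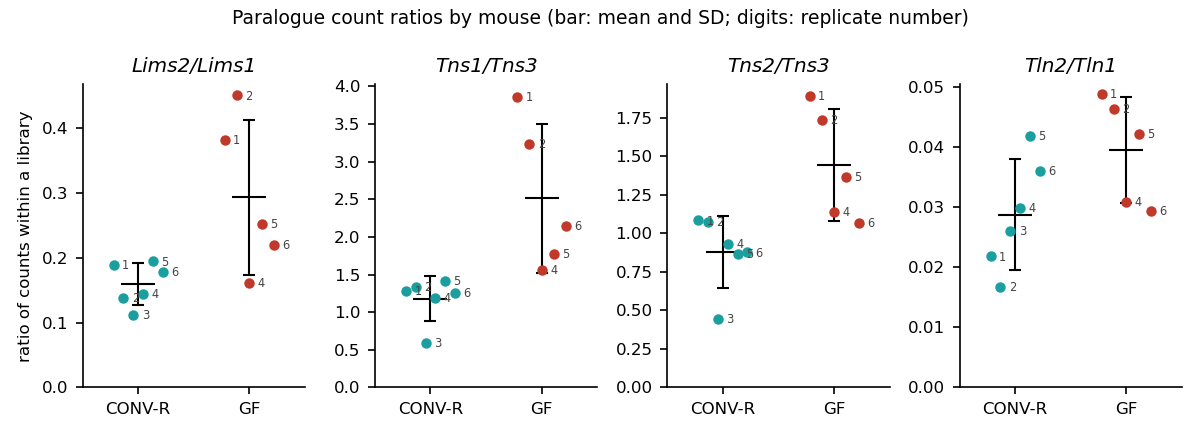
Ratio of the counts of 2 paralogues within each library, 1 point per mouse, with digits giving the replicate number and bars the mean and SD of 6 CONV-R and 5 GF mice. Axes are linear and start at 0. *Tns1* to *Tns3* separates the groups; *Lims2* to *Lims1* overlaps in GF replicate 4 alone, and *Tln2* to *Tln1* overlaps more widely.

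Besides *Ilk*, 4 rows fell below the low-count filter. *Itga7*, the laminin receptor chain of muscle, had 8 counts in all CONV-R and 5 in all GF libraries. *Itgax*, a dendritic cell chain, had 63 and 10 counts, of which 40 came from CONV-R replicate 3. *Itgb6*, an epithelial beta chain, had 9 and 18 counts, 12 of them in GF replicate 2. The second *Itgam* row had 6 and 6 counts. Exact permutation tests on the CPM of these 4 rows gave two-sided p of 0.310 to 0.957. No difference was detected in these rows at this depth.

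The wider pathway was read from lists of genes with integrin-related roles, beside the 4.80% of all tested genes that were higher and the 2.67% that were lower. The lists were written with earlier results of these data known, so their counts are description only. Among 46 tested adhesion adaptors and kinases 7 rose in GF ECs and 2 fell, with a median log2 fold change of 0.11. *Nedd9*, a scaffold of the same family as *Bcar1*, had 82.0 to 102 CPM in CONV-R and 142 to 172 CPM in GF libraries (log2 fold change 0.68, SE 0.10, adjusted p = 0.000585), and the groups did not overlap. *Kank2*, which binds talin and links adhesions to microtubules at the cell cortex, had 84.2 to 111 CPM in CONV-R and 45.6 to 60.2 CPM in GF libraries (log2 fold change -0.81, SE 0.12, adjusted p = 0.000430), again without overlap. *Sorbs3*, which encodes the vinculin partner vinexin, had a log2 fold change of 1.06 (SE 0.20, adjusted p = 0.00312), *Elmo1*, a Rac activator subunit, 1.47 (SE 0.30, adjusted p = 0.00620), and *Tes*, a partner of zyxin, 1.02 (SE 0.21, adjusted p = 0.00671). The kinase gene *Fyn* was lower, with a log2 fold change of -0.46 (SE 0.12, adjusted p = 0.0243). Its call was lost without CONV-R replicate 4 or GF replicate 2 or 6 (adjusted p up to 0.0724). With both CONV-R replicate 3 and GF replicate 6 left out, 6 genes of this list were higher and 1, *Kank2*, was lower.

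Of 20 tested inactivators and trafficking genes 3 were higher and 1 was lower, with a median of -0.03. *Dab2*, a clathrin adaptor that carries integrins into the cell, had 1610 to 1981 CPM in CONV-R and 1023 to 1599 CPM in GF libraries without overlap (log2 fold change -0.60, SE 0.12, adjusted p = 0.00455). The higher genes were *Slc3a2*, a transporter chain that binds beta tails (0.51, SE 0.11, adjusted p = 0.0113), *Ptprj*, a receptor phosphatase (1.39, SE 0.32, adjusted p = 0.0126), and *Cav1*, the coat protein of caveolae (0.61, SE 0.16, adjusted p = 0.0264). The *Cav1* call was lost without CONV-R replicate 2, 4 or 5 or GF replicate 2, 5 or 6 (adjusted p up to 0.0795). With both CONV-R replicate 3 and GF replicate 6 left out, *Slc3a2* was the 1 higher gene left (adjusted p = 0.0230) and *Dab2* stayed lower (0.0172), while *Ptprj* had 0.90 (adjusted p = 0.0601).

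Ligands were the list with the most higher calls, 13 among 25 tested genes, and had a median log2 fold change of 0.70. The list was written with earlier results known, and the paper already names *Fn1* as upregulated in GF mice, so this count is description only. Those with the smallest adjusted p were *Fn1*, *Ctgf*, *Vcam1* and *Thbs1*. *Vcam1*, an adhesion receptor for the chains of *Itga4* and *Itga9*, had 125 to 209 CPM in CONV-R and 239 to 340 CPM in GF libraries without overlap (log2 fold change 0.90, SE 0.14, adjusted p = 0.000661). *Thbs1*, the matrix protein thrombospondin-1, had 0.478 to 4.52 CPM in CONV-R libraries and 23.5, 21.5, 1.52, 21.3 and 10.7 CPM in GF libraries (log2 fold change 2.88, SE 0.54, adjusted p = 0.00329). GF replicate 4 was the lowest GF library for *Thbs1* as for *Itga3*. *Fn1*, fibronectin, and *Ctgf*, a matricellular protein, had log2 fold changes of 2.65 (SE 0.30, adjusted p = 3.47e-05) and 2.99 (SE 0.35, adjusted p = 6.06e-05). The count of higher ligands was 8 without GF replicate 6 and 10 without both CONV-R replicate 3 and GF replicate 6, and these 4 were still called in the latter fit.

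Among 18 tested genes of actomyosin and its regulators 2 were higher and 0 lower, with a median of 0.08. *Rhoa*, the GTPase that drives stress fibre contraction, had 57.8 to 79.4 CPM in CONV-R and 86.5 to 148 CPM in GF libraries without overlap (log2 fold change 0.69, SE 0.13, adjusted p = 0.00422). *Mkl2*, a coactivator of serum response factor, had 0.64 (SE 0.19, adjusted p = 0.0489), and its call was lost in 9 of the 11 fits with 1 library left out (adjusted p up to 0.110). *Rhoa* was the 1 gene called with both CONV-R replicate 3 and GF replicate 6 left out (0.0124). The 2 further integrin subunits with enough counts, *Itga10* and *Itgae*, had log2 fold changes of 0.26 (SE 0.28, adjusted p = 0.639) and 0.15 (SE 0.30, adjusted p = 0.816).

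Single libraries were often at the edge of their group. CONV-R replicate 3 was the lowest CONV-R library in 18 of the 36 tested rows and in 7 of the 8 called genes, against 30.3% of all tested genes. CONV-R replicate 1 was the highest CONV-R library in 14 of the 36 rows, against 18.9%. GF replicate 1 was the highest GF library in 15 of the 36 rows and 4 of the 8 called genes, against 20.3% of all tested genes, and GF replicate 5 was the lowest in 16 rows, against 23.1%. Large vessel and capillary EC markers, 7 genes such as *Vwf* and *Cd34*, were also highest in GF replicate 1, with a sum of 1948 CPM against 784 to 1251 CPM in CONV-R libraries and 1012 to 1314 CPM in the other GF libraries (two-sided exact permutation test, p = 0.0411, adjusted 0.107). *Ly6a* and *Cd34* of this list were higher in GF ECs, and the part of these markers in the members' values was not tested. Stellate cell markers summed to 171 to 314 CPM in CONV-R and 291 to 338 CPM in GF libraries (two-sided exact permutation test, p = 0.0390, adjusted 0.107), and smooth muscle markers to 65.4 to 104 and 73.8 to 100.3 CPM.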

How the data were processed

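RNA of sorted liver ECs from 6 CONV-R and 5 GF mice was analysed, 1 library per mouse, grouped by the sample labels. The authors deposited raw counts per gene, for which 50 bp reads were trimmed, aligned with STAR to GRCm38 and assigned to genes by featureCounts. The authors removed 1 further GF library with few mapped reads. They also deposited normalized values on a log2 scale, in which weakly counted genes are pulled together, and these served only in an alternative. Annotation release and strand setting are not given in the sources used here.

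Counts were filtered with filterByExpr and TMM-scaled, and groups were compared by the quasi-likelihood test of edgeR 4.0.16 (R 4.3.3), with Benjamini-Hochberg adjustment over 12905 genes and a threshold of 0.05. SE is the log2 fold change divided by the root of the F statistic. Single values were compared by two-sided exact permutation tests over 462 splits, with a smallest p of 0.00216. Exon lengths, positions and overlaps came from GENCODE M21, and promoter sequences from RefSeq. Alternatives were DESeq2 1.42.0 and its size factors, limma 3.58.1 (voom, and on the normalized values), other count filters, a replicate block and each library left out. Leaving out CONV-R replicate 3 and GF replicate 6 together, and the paralogue ratios, were added after the data were seen. Plots used matplotlib 3.10.9. Tests were tried on simulated data. There edgeR found 60 of 99 genes changed 2-fold and 80 of 97 changed 3-fold, with 9 false calls among 149. A member without a call can therefore still differ by this much.

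The members and lists were chosen with earlier results of these data known. Named genes are the 40 members, the up to 4 called genes per direction with the smallest adjusted p in each pathway list, and the most abundant or defining markers. A called gene of the ligand list is not reported here.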

Additional observations from a re-analysis of the deposited data

Results flagged for a closer look

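In 8 of 72 groups of libraries, 1 library lay far from the rest of its group by Dixon's gap test, which chance does in about 1 in 20 groups. There were 4 such values in GF replicate 6, namely *Itgal* at 62.8 CPM (other GF libraries 14.8 to 20.96), *Itga4* at 30.1 CPM (6.48 to 11.01), *Itgb2* at 15.2 CPM (5.02 to 6.95) and *Itgb5* at 10.04 CPM (4.86 to 5.98). The first 3 are leukocyte integrin chains, and this library also had the highest Kupffer cell marker sum. The part of these markers in the 4 values was not tested. CONV-R replicate 3 was low for *Itgb3* at 19.3 CPM (other CONV-R libraries 49.97 to 60.4) and for *Itgav* at 52.9 CPM (81.6 to 92.8), the 2 chains of the vitronectin receptor. *Tns2* was high in GF replicate 1 at 677 CPM (391.7 to 462), and *Itga2* was high in CONV-R replicate 5 at 4.52 CPM (0.982 to 1.86).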

How the results depend on the processing

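No called value of a member changed direction under any alternative. Of 710 alternative values of the members 656 kept their side of the threshold, 43 fell short of it and 11 newly passed it, and all 8 called members stayed above 0 throughout. DESeq2 called 1527 genes in place of 965, with 10 members among them. The authors' normalized values left 2 members called (*Itgb5* and *Lims2*), and leaving out CONV-R replicate 3 and GF replicate 6 left 5 (*Itgb3*, *Lims2*, *Vcl*, *Tns1* and *Flna*). Leaving out 1 library gave 622 to 1260 called genes, 3 to 11 members higher and 0 lower in each. The cause of these shifts was not tested. *Lims2* and *Tns1* were called in every such fit. Same-numbered libraries are different mice, and what a shared number stands for is not known here. Their deviations correlated at -0.0144 to 0.201, which cannot show whether they shared a batch. With the replicate block 1101 genes and 10 members were called, *Itgal* and *Tns2* being added. The same libraries without the block gave 931 genes and 7 members. Of 84 alternative values of the paralogue ratios 81 kept their side and 3 newly passed. Weakly counted members such as *Itgb8*, *Itgb4* and *Itgam* are limited by depth.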
